A study of Homo sapiens with 42 samples.

Results

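The regions described here were open chromatin that the melanoma lines 92-1 and A375 had in common and that the other 5 lines of the study largely lacked. They were chosen from the peak lists of the DMSO samples as bases covered by an interval in all 3 samples of 92-1 and all 3 of A375, in segments of at least 100 bp on chromosomes 1 to 22 and X, with an overlapping interval in at most 2 of the 15 DMSO samples of the other lines. This gave 2312 melanoma-shared regions of the 16572 segments that all 6 DMSO samples covered. The remaining shared segments were split into 6457 with an interval in 3 to 14 of the other DMSO samples and 7803 with one in all 15.

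ATAC-seq measured chromatin accessibility in 7 human cancer cell lines, each labelled as wild type and each exposed for 4 h to DMSO, the negative control, or to FHT-1015, a dual inhibitor of SMARCA4 and SMARCA2. Each of the 14 groups had 3 biological replicates, 42 samples in all. 92-1 is a uveal melanoma line and A375 a melanoma line of the skin; the others are the prostate adenocarcinoma line 22RV1, the rhabdomyosarcoma line RD, DU4475 from an invasive breast carcinoma, HCT116 from a colorectal adenocarcinoma and the acute myeloid leukemia line MV411. The FHT-1015 samples were not used to choose the regions, and each line is a single established line, so line and tumour type cannot be told apart.

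SMARCA4 and SMARCA2 are the alternative ATPases of the BAF complexes, which slide and evict nucleosomes and keep many enhancers open to transcription factors. In ATAC-seq a transposase inserts adapters into DNA that nucleosomes leave free, so reads pile up at promoters and enhancers. Melanocytes of the eye and of the skin both descend from the neural crest. In both, the factors MITF and SOX10 drive the pigment genes, and BAF complexes are known partners of these factors in melanoma.

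Promoters were rare among the melanoma-shared regions: 20 of 22132 RefSeq promoter windows (250 bases before to 50 after a gene start) overlapped one. Of the 6 printed here, 5 have the strongest DMSO peaks of the 20, and that of CDH19 was called in every FHT-1015 sample of both lines. Each is the stretch of 250 bases before the start, 5′ to 3′ on the gene's strand, from RefSeq, build GRCh38.p14. Capitals mark matches on either strand to the E-box letters CACGTG and CATGTG, the SOX letters AACAAT and ACAAAG and the AP-1 letters TGANTCA.
RNF144A (chr2:6932834-6933083, plus strand): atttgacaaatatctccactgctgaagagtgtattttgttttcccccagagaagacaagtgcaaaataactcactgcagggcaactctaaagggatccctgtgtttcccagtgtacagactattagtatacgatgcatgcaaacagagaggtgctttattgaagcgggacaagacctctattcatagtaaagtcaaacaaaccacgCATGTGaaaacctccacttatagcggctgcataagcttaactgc
TMPRSS5 (chr11:113706309-113706558, minus strand): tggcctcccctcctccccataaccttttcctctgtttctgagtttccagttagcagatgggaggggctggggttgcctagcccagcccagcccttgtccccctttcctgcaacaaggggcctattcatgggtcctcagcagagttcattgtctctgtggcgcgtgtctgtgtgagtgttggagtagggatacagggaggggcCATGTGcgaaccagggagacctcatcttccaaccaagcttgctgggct
DMRT2 (chr9:1051237-1051486, plus strand): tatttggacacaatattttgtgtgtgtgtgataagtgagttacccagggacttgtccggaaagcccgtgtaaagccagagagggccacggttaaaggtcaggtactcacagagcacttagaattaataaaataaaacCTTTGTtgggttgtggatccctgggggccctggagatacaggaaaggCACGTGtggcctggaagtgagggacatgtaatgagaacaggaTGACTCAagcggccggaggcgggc
S100A1 (chr1:153628184-153628433, plus strand): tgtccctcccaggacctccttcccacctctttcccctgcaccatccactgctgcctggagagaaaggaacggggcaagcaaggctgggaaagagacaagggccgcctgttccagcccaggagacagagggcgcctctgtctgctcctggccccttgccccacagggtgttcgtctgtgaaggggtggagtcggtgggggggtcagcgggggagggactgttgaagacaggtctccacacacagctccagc
ATP10B (chr5:160852212-160852461, minus strand): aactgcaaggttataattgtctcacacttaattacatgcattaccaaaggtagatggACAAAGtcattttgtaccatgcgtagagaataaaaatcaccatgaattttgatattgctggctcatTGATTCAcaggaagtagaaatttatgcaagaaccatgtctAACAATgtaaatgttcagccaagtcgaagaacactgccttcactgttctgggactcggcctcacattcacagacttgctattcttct
CDH19 (chr18:66604091-66604340, minus strand): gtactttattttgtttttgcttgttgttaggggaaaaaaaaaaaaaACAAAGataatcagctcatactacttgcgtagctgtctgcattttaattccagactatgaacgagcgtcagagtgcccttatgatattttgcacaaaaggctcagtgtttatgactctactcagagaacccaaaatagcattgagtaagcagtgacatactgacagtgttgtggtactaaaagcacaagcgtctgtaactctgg

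RNF144A encodes a ubiquitin ligase, TMPRSS5 a transmembrane serine protease, DMRT2 a transcription factor, S100A1 a calcium-binding protein, ATP10B a lipid flippase and CDH19 a cadherin of Schwann cell precursors. The region at RNF144A covered all 250 of these bases, that at TMPRSS5 246, that at DMRT2 240, that at S100A1 250, that at ATP10B 163 and that at CDH19 209. The window of DMRT2 holds an E-box at position 185, a SOX match at position 138 and an AP-1 match at position 227, counted from 1 at the 5′ end, while that of S100A1 holds none of these letters. At DMRT2 no FHT-1015 sample of 92-1 and all 3 of A375 had a call.

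Over the whole 300-base windows, ACAAAG stood in 10 of the 20 promoters with a melanoma-shared region (50%), in 13.6% of all windows and in 8.91% of the 7158 windows that overlapped another shared segment. AACAAT stood in 6 of the 20 (30%, against 7.42% of all windows), CATGTG in 4 (20% against 8.93%) and CACGTG in 1 (5% against 8.34%). TGANTCA stood in 4 (20% against 6.15%). The TFAP2 letters GCCNNNGGC, of another factor of the melanocyte lineage, stood in 2 (10% against 27.4%), and the RUNX letters TGTGGT in 6 (30% against 11.3%). The GC box letters GGGCGG stood in 3 of the 20 (15%), against 56.3% of all windows and 78.0% of those at other shared segments. The 20 promoters were poor in GC box letters. Matches were counted over the whole window, and some lay outside the region, as that to ACAAAG at ATP10B and all at KLHL5. These matches describe letters in a window and no binding, AP-1 letters can overlap E-box letters by CA or TG and SOX letters by A, and genome sequence at the other regions was not used here.

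The lists give no read numbers, so relative depth was read from a background pileup, solved from each peak's fold and p. In 92-1 it was 0.430, 0.123 and 0.0839 with DMSO and 0.299, 0.0346 and 0.0341 with FHT-1015. In A375 it was 0.901, 0.679 and 0.606 with DMSO and 1.35, 1.27 and 0.707 with FHT-1015. The backgrounds of the treatments overlapped in both lines, and FHT-1015 replicates 2 and 3 of 92-1 stood far below the other samples. Markers were read as an interval within 1 kb of a gene end in all 3 DMSO samples of a line. The melanocyte list gave 8 of 12 genes in 92-1, 5 in A375 and 3 to 6 in the other lines, so the list did not set the melanoma lines apart. With strict peaks it gave 0, 2 and 2 to 4, so all 8 genes of 92-1 rested on weaker calls in at least 1 sample. TYR, GPR143 and TRPM1 were absent in both lines, while TRPM1 was present in DU4475. SOX10 was present in 92-1, A375 and RD. Epithelial genes were present for 1 of 10 in 92-1 and 4 of 10 in A375, against 9 or 10 in 22RV1, DU4475 and HCT116.

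The melanoma-shared regions lay away from the ends of genes. Of the 2312, 47 (2.03%) had a protein-coding gene end within 1 kb, against 24.9% of shared segments found in 3 to 14 of the other DMSO samples and 78.4% of those found in all 15. The median distance to a gene end was 63.2 kb, against 19.0 kb and 0.135 kb. In this they lay between the regions of a single melanoma line: the median was 89.0 kb for 10693 regions that 92-1 alone held and 48.9 kb for 11027 that A375 alone held, by the same rule applied to 1 line. A gene contained 1057 of the melanoma-shared regions (45.7%, against 42.6% of the other shared segments), and 891 (38.5%) lay over 100 kb from any gene end. The annotation used gives no exons or introns. All these comparisons are descriptions with no test.

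**Figure D1:**
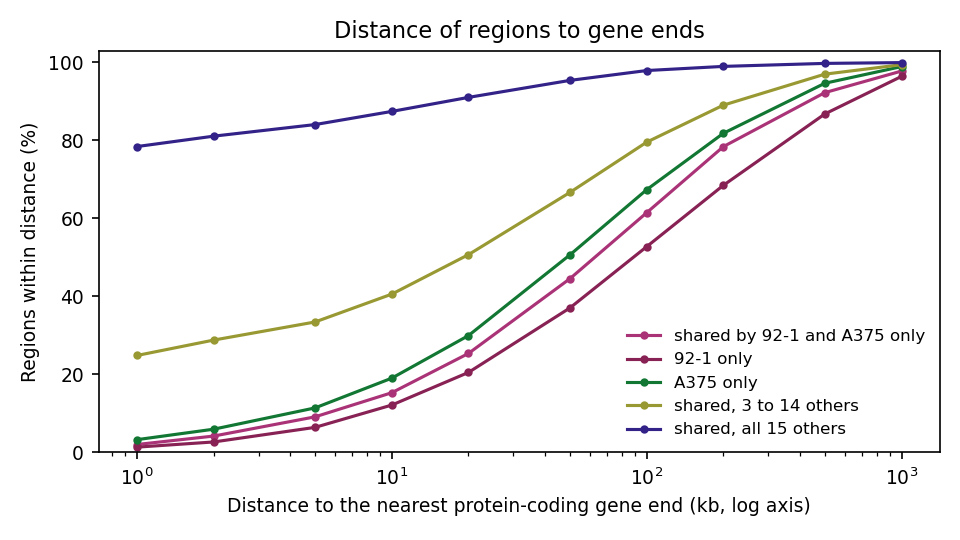
Cumulative percent of regions (y axis) within a distance of the nearest end of a protein-coding gene (x axis, kb, log axis). The curve of the melanoma-shared regions starts at 2.03% at 1 kb and runs between those of the regions held by 92-1 only and by A375 only, far below the shared segments found in all 15 other DMSO samples (78.4% at 1 kb).

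The regions were short and mostly isolated. Their width ran from 100 to 607 bp with a median of 187 bp, and together they covered 471.581 kb. Among them 2163 had no other melanoma-shared region within 12.5 kb, and only 1 group of 3 formed, beside HACD1, which encodes an enzyme of fatty acid elongation. The summits of the strongest peaks of 92-1 and A375 at a region lay a median of 35 bp apart, and 1439 of the 2312 pairs (62.2%) lay within 50 bp. The rule asks for bases covered in both lines, which favours near summits. For the shared segments of 3 to 14 and of all 15 other samples the medians were 37 and 40 bp, so the lines placed their summits at like distances in each class.

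The values that chose the regions are given as a description. Their median fold enrichment, the authors' ratio of pileup to background, was 11.2, 5.84 and 4.59 in the DMSO samples of 92-1 and 6.31, 6.83 and 4.58 in those of A375. Within their own lists the regions had median percentiles of −log10 p of 93.0 to 94.9 in 92-1 and 78.7 to 82.9 in A375. The other shared segments ranked higher in all 6 samples, with medians of 94.6 to 96.3 in 92-1 and 91.8 to 93.5 in A375. Strict peaks (−log10 q of 5 or more) were present in all 6 DMSO samples at 202 regions (8.74%) and in none at 35 (1.51%). By the number of other DMSO samples with an interval, 962 regions had 0, 749 had 1 and 601 had 2, just inside the limit, while 741 segments with 3 stood just outside.

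FHT-1015 samples of 92-1 had a call at few of the melanoma-shared regions and those of A375 at more. An interval overlapped 35.3%, 23.4% and 22.4% of the 2312 regions in the 3 FHT-1015 samples of 92-1 and 48.2%, 76.8% and 60.6% in those of A375. The FHT-1015 samples of the other 5 lines had between 2.25% and 10.7%, close to the 2.64% to 8.69% of their DMSO samples, which the rule kept low. All FHT-1015 samples of both melanoma lines stood above every FHT-1015 sample of the other lines, an order that the choice in DMSO samples of the same lines favours. Regions held by A375 only, measured in the same FHT-1015 samples of 92-1, had a call at 5.38% ± 1.68 (SD, n = 3). The DMSO samples of 92-1 had a call at 12.9% ± 4.39 (SD, n = 3) of them. The rule for these regions allowed up to 2 DMSO samples of the other lines, 92-1 among them, so 92-1 did not lack them all.

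**Figure D2:**
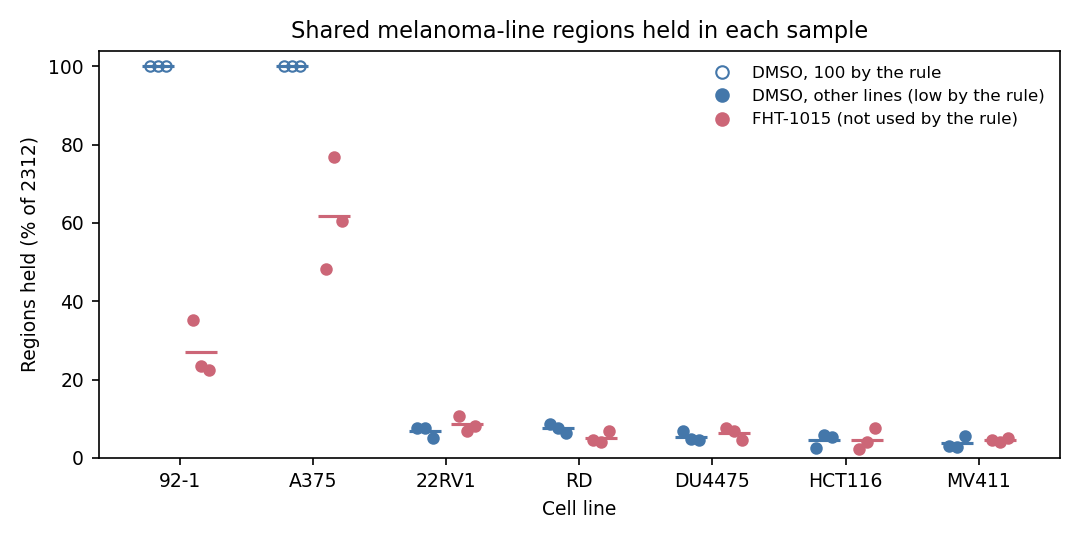
Percent of the 2312 melanoma-shared regions with an overlapping interval (y axis) in each of the 42 samples (points), by cell line (x axis), with group means as lines. Open points are fixed at 100 by the rule; the FHT-1015 samples lie at 22.4% to 35.3% in 92-1, 48.2% to 76.8% in A375 and 2.25% to 10.7% in the other lines.

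Because the DMSO samples were at 100% by choice, the regions were chosen anew on 2 DMSO replicates of each line and read in the replicate left out, for each replicate in turn. In 92-1 the left-out DMSO samples held 93.3%, 78.9% and 68.4% of such regions and the FHT-1015 samples 30.2%, 19.9% and 18.8%. The means were 80.2% ± 12.5 and 23% ± 6.30 (SD, n = 3), a difference of -57.2 percentage points without overlap of the groups. In A375 the left-out DMSO samples held 93.0%, 95.2% and 76.4% and the FHT-1015 samples 43.0%, 71.4% and 54.6%. Here the means were 88.2% ± 10.3 and 56.4% ± 14.3 (SD, n = 3), a difference of -31.9 points, again without overlap. Whether the lines differed in this was not tested, and 3 against 3 samples allow no exact p below 0.1.

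The difference was smaller for shared segments that more DMSO samples of the other lines held. For those found in 3 to 14 of the other DMSO samples the difference was -39.3 points in 92-1 and -9.74 in A375, with overlapping groups in A375. For those found in all 15 it was -19.3 in 92-1 and 0.084 in A375, with overlapping groups in both. The last value has little room to differ, since the left-out DMSO samples of A375 held 99.4% of these segments. With strict peaks the differences in 92-1 were -44.6 points for the melanoma-shared regions, without overlap, and -37.2 and -33.4 for these 2 classes, with overlap. With pileups of A375 drawn down to a common background, the melanoma-shared regions went from 66.0% ± 17.1 to 24.1% ± 12.6 (SD, n = 3), a difference of -41.8 points without overlap, and the segments of all 15 samples had -2.77 with overlap. Segments of 3 to 14 other samples had -22.2 points in that reading, with overlap. It changed 2 things together, the background and the threshold, which was −log10 p of at least 5. In 92-1 the FHT-1015 samples had the lower mean background, but replicate 1, at 0.299, stood above DMSO replicates 2 and 3 in background and below them in regions held. Equal lengths of the lists gave -50.9 points in 92-1, and the part of depth was not tested. In A375 the groups overlapped at q below 0.05 (-35.3 points) and with strict peaks (-29.7 points).

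**Figure D3:**
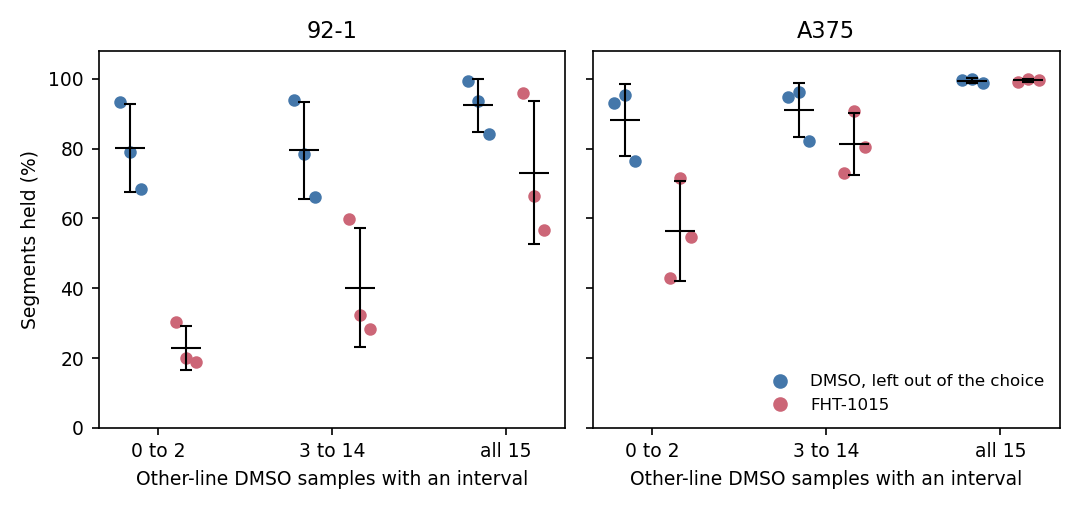
Percent of segments with an interval (y axis) in the DMSO replicate left out of the choice and in the FHT-1015 samples, for 92-1 (left) and A375 (right), by the number of other-line DMSO samples with an interval (x axis; 0 to 2 are the melanoma-shared regions). Points are samples, bars the mean ± SD (n = 3); the melanoma-shared regions show -57.2 points in 92-1 and -31.9 in A375, and the segments of all 15 samples 0.084 in A375.

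The share held was higher the more DMSO samples of the other lines had a segment, though not at every step. It was 26.2% in 92-1 and 57.7% in A375 for regions that none of the other 15 DMSO samples had, 27.9% and 68.1% for those with 2, and 29.96% and 68.7% for the segments with 3 just outside the limit. Segments in all 15 stood at 74.9% and 99.6%. The values thus ran on across the limit of 2 samples.

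**Figure D4:**
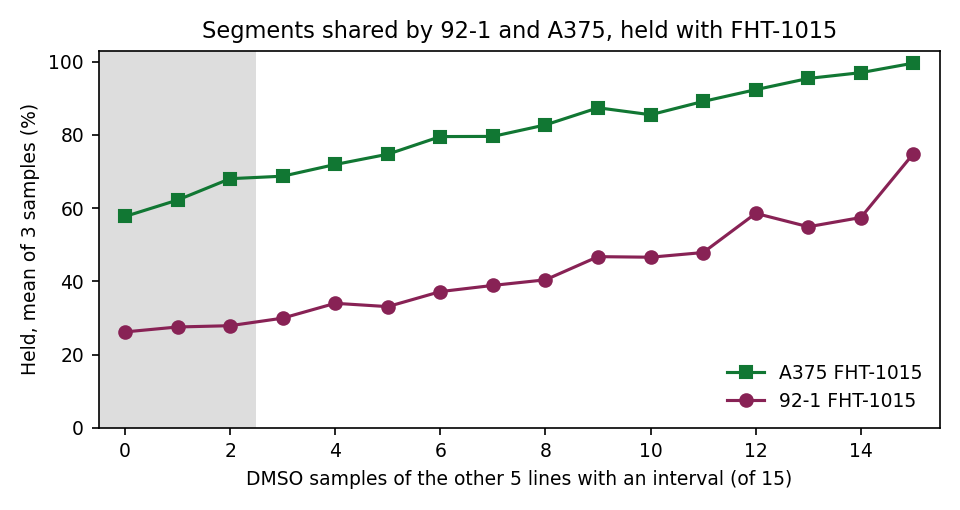
Mean percent of shared segments with an interval in the 3 FHT-1015 samples of 92-1 and of A375 (y axis) by the number of the 15 other DMSO samples with an interval (x axis). The grey band marks the melanoma-shared regions; values run from 26.2% to 74.9% in 92-1 and from 57.7% to 99.6% in A375.

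Of the 2312 melanoma-shared regions, 1072 (46.4%) had no call in any FHT-1015 sample of 92-1, against 16.1% of all 16572 shared segments. In A375 there were 369 (15.96%, against 3.9%), and 196 (8.48%, against 1.97%) had none in either line. At the other end, 76 (3.29%, against 26.7%) were called in all 6 FHT-1015 samples. More regions were held in more A375 than 92-1 samples (1501) than the reverse (294), and 380 had no call in 92-1 and 3 in A375. This order of the lines was not particular to these regions. Calls in all 3 FHT-1015 samples were at 39.2% of them in A375 and 5.93% in 92-1, against 79.6% and 28.1% of all shared segments. Without A375 FHT-1015 replicate 2, the sample with most calls, 724 regions had no call in A375 and 378 in either line.

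Many of the calls that remained in 92-1 rested on the fewest fragments a peak can have. The pileup at the strongest peak was 2 at 422 of 542 held regions (77.9%) in FHT-1015 replicate 2 and at 426 of 519 (82.1%) in replicate 3, against 43 of 817 (5.26%) in replicate 1. In the DMSO samples of 92-1 it was 2 at 3, 303 and 565 of the 2312 regions. In A375 it was 2 at none, but at the higher background there a pileup of 2 falls short of the lists' lowest −log10 p. The zero in A375 thus says nothing about the regions. With strict peaks, the regions held in 92-1 were 11.7%, 0.606% and 0.346% with FHT-1015, and 12.2%, 42.7% and 17.3% in A375. At this depth a missing call in 92-1 replicates 2 and 3 does not show that a region was closed.

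The strongest regions were held most often. Regions were ranked by strength, the lowest percentile of −log10 p over the 6 DMSO samples, and split into 4 ranges, a choice made after the data had been seen. In the strongest range (578 regions) 36.9% were held in 92-1 and 89.7% in A375, and in the weakest (589 regions) 19.4% and 49.2%. The ranges between stood at 25.6% and 42.7% (597 regions) and, next to the strongest, at 26.6% and 66.9% (548 regions). In A375 the weakest range thus stood above the next. Other shared segments over 1 kb from a gene end stood at 59.8% and 96.3% within the strongest range and 37.9% and 76.9% within the weakest. The melanoma-shared regions were thus held less often than other distal segments of the same range, a description with no test. The ranges are wide, so strength within a range was not matched. By position, the 47 regions near a gene end were held at 30.5% and 74.5% and the 2265 others at 27.0% and 61.6%.

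Whether the melanoma lines still had calls more often than the other lines under FHT-1015 was tested over the 21 FHT-1015 samples, 6 against 15. By Fisher's exact test (two-sided, Benjamini-Hochberg adjustment over 16572 segments), 138 melanoma-shared regions (5.97%) were called more often in 92-1 and A375, against 1.25% of all shared segments. At an unadjusted p below 0.05 there were 898, a count given without the share of all shared segments, so nothing is read from it. The regions were chosen in DMSO samples of the same lines for the same pattern, and most of the 16572 segments are held by the other lines too, so nothing is read from the direction or from the gap between these shares. The lowest adjusted p, by the exact test, was 0.00848. No FHT-1015 sample of the other lines had a call at 1084 regions (46.9%), and 193 (8.35%) had 3 or more. The count fell to 0 when any replicate number was left out in every line, with strict peaks, and with the 7 lines as units (exact permutation, lowest possible p = 0.0476, which 637 regions reached). It was 41 without MV411 and 36 with the replicate number as a block. Without a replicate number fewer samples are left and the lowest possible exact p is higher. The 0 there can follow from sample number and does not show dependence on any 1 replicate. The 3 samples of a line share their cells, but Fisher's exact test counts each sample as independent. Its p-values, here and at the single regions below, therefore do not reach beyond these lines. None of those regions passed with the 7 lines as units.

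The 10 strongest regions had strict peaks in all 6 DMSO samples and a call in all 3 FHT-1015 samples of A375, and 4 of them had calls in all 3 of 92-1. The first, chr1:166170675-166171033, lay 3.85 kb outside FAM78B, a gene of unknown function. Its fold enrichment was 17.2, 11.9 and 12.1 in 92-1 DMSO, 8.44, 8.76 and 6.36 in A375 DMSO, and 5.76, 11.5 and 8.19 in A375 FHT-1015, with no call in 92-1 FHT-1015. It was the only 1 of the 10 without any call there. Folds are the authors' values within each list and are not compared between lists.

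A region inside TMEM178B, at chr7:141128362-141128864, was called in all 6 FHT-1015 samples and in 2 of the 15 of the other lines (Fisher's exact test, adjusted p = 0.0413). Its fold was 10.03, 2.90 and 5.505 in 92-1 and 9.47, 13.4 and 9.49 in A375 with FHT-1015. Regions 60.5 kb from C5orf46 and 79.1 kb from CNTNAP3B, each with 1 call among the other 15, also passed (exact test, adjusted p = 0.0282 each). In 92-1 FHT-1015 replicates 2 and 3 the folds were only 2.90 and 2.90 at the first and 2.83 and 2.75 at the second. The median over held regions was 2.90 in each of these samples, where most calls had a pileup of 2. CNTNAP3B has near-identical copies on chromosome 9 that share reads, so its region is uncertain. The region inside THRB, the thyroid hormone receptor beta gene, was called in all 6 too but in 3 of the others, and did not pass (exact test, adjusted p = 0.0735). The region inside MGAT4C, a glycosyltransferase gene, was called in all 6 and in none of the 15 (exact test, adjusted p = 0.00848). The other strong regions included those near TRIM36, TMEM161B and ST3GAL1 and inside ANKS1B, which had 4 or 5 calls among the 6 samples.

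Some strong regions had no call left. Inside PCSK5, which encodes a proprotein convertase, chr9:76092660-76092873 had folds of 21.2, 11.4 and 6.61 in 92-1 DMSO and 7.59, 8.09 and 5.61 in A375 DMSO, and strict peaks in all 6. None of the 21 FHT-1015 samples had a call there. At chr7:83672217-83672461, 23.2 kb from the semaphorin gene SEMA3E, the folds were 15.2, 4.96 and 8.66 and then 7.05, 6.68 and 5.28, and no FHT-1015 sample of either line had a call. The same held inside PRKX, a protein kinase gene, 190.352 kb from WDR72, and inside RASEF, a small GTPase gene, where 3 FHT-1015 samples of other lines had a call. In A375 alone, calls were gone at regions inside ADCY2, an adenylyl cyclase gene, inside HHAT, a palmitoyltransferase gene, and 1089 kb from IGSF11, with 2, 1 and 2 calls left in 92-1. The region inside ADCY2 kept folds of 7.14 and 4.72 in 92-1 replicates 1 and 2.

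Melanocyte and pigment genes had melanoma-shared regions within 100 kb more often than genes at large. This held for 6 of 11 melanocyte transcription factors, 11 of 21 pigment cell genes, 4 of 15 reported MITF targets and 6 of 17 neural crest and Schwann cell genes, against 2935 of 19974 protein-coding genes (14.7%). None of 15 MAPK feedback genes and none of 11 YAP and TEAD targets had one, although shared segments of any kind numbered 37 and 35 at those loci. Median locus lengths were 299 kb, 280 kb, 304 kb and 214 kb for the first 4 lists and 224 kb for all genes. Loci were thus longer than those of all genes for 3 of these lists, and the part of locus length was not tested. The lists were written with earlier results of these data known. At the 4 lists with regions, 36 distinct regions were found; 15 (41.7%) had no FHT-1015 call in 92-1 and 7 (19.4%) none in A375, against 46.4% and 15.96% of all 2312. A call was missing in both lines at 2 of them, and 6 (16.7%, against 5.97% of all 2312) passed the test of calls against the other lines.

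Among the transcription factors, MITF, the master regulator of melanocytes, had 1 region, chr3:69821382-69821531 inside the gene. Its fold was 7.49, 4.45 and 2.77 in 92-1 DMSO and 6.47, 5.71 and 6.07 in A375 DMSO. With FHT-1015 only 92-1 replicate 1 had a call, at 9.66. SOX10, which specifies the melanocyte lineage with MITF, had 1 region, inside the neighbouring POLR2F, with calls in A375 FHT-1015 replicates 2 and 3 at 5.42 and 3.95 and none in 92-1. The region 21.1 kb from TFAP2A, a neural crest factor, kept 1 call, in A375. SOX5, a SOX factor of the melanocyte lineage, had 2 regions inside the gene, which were held in 5 and 4 of the 6 FHT-1015 samples and by all 3 of A375. Their adjusted p was 0.0735 each by Fisher's exact test. At SOX6, the paralog of SOX5, 1 region had all 3 A375 calls and the other, inside PLEKHA7, no call in either line. The region within reach of ALX1, a homeobox gene, lay inside LRRIQ1 and had 1 call in each line. PAX3, TFEC, LEF1, IRF4 and FOXD3 had none.

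Among pigment genes TYR, the tyrosinase gene, had 1 region on each side. That at chr11:89309461-89309740, 13.8 kb outside the gene, had folds of 34.1, 15.8 and 16.5 in 92-1 and 6.77, 10.6 and 9.11 in A375. It was called in all 6 FHT-1015 samples, with folds of 8.59, 3.67 and 4.59 and of 3.83, 9.76 and 8.67, and in none of the other 15 (Fisher's exact test, adjusted p = 0.00848). On the other side of the gene, at chr11:89168539-89168671, 9.27 kb outside it, the DMSO folds were 15.54, 6.61 and 4.61 in 92-1 and 11.9, 14.6 and 7.93 in A375. This one was called in all 3 FHT-1015 samples of A375 and in none of 92-1 (exact test, adjusted p = 0.167). In 92-1 with FHT-1015, 1 flank of TYR had a call in every sample and the other in none.

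DCT, the dopachrome tautomerase gene, had the strongest region of the list, inside the adjacent GPC6, with 4 of 6 FHT-1015 calls, and another inside TGDS with 1. RAB27A, which carries melanosomes, had 1 region inside the gene that 5 of 6 FHT-1015 samples and none of the 15 held (exact test, adjusted p = 0.0282). EDNRB, the endothelin receptor of melanoblasts, had 2 regions inside the gene with all 3 A375 calls each and 1 and 0 calls in 92-1. MYO5A and MLPH, partners of RAB27A in melanosome transport, had 1 and 2 regions, with 3 of 6 calls at the first and 1 and 2 at the others. The regions of PMEL and BNC2 had 2 calls each, both in A375, and that of MLANA 1 in each line. RAB38, a melanosome GTPase gene, kept 1 call, in 92-1. HPS4 had 1 region, inside SRRD, with none in either line. Pooled over the list, the 15 regions were held at 24.4% in 92-1 and 62.2% in A375, near the 27.1% and 61.9% of all 2312.

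Of the MITF targets, ST3GAL6, a sialyltransferase gene, had 3 regions. The strongest, chr3:98779971-98780262 inside the gene, had folds of 8.08, 8.17 and 8.28 in 92-1 DMSO and 7.45, 8.13 and 6.42 in A375 DMSO. It was called in 5 of 6 FHT-1015 samples and none of the other 15 (exact test, adjusted p = 0.0282), and the others had 3 and 1 calls, all in A375. SEMA6A, a semaphorin gene, kept all 3 A375 calls and INPP4B, a phosphoinositide phosphatase gene, 1 call in 92-1. The region within reach of CDK2 is the one counted for PMEL.

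Neural crest and Schwann cell genes had the highest share held in 92-1 of the 4 lists, 58.3%, with 66.7% in A375, and 3 of their 8 regions were called in all 6 FHT-1015 samples. Among these were a region 17.6 kb from SNAI2, the neural crest repressor, and the CDH19 promoter printed above. The CDH19 region, chr18:66604102-66604310, had folds of 19.7, 8.11 and 4.84 in 92-1 DMSO and 20.3, 4.35 and 6.25 with FHT-1015. In A375 it had 4.73, 6.58 and 4.98 and then 4.69, 9.04 and 4.69, so it was called in all 12 samples. It had 1 call among the other 15 FHT-1015 samples, and that near SNAI2 had none (exact test, adjusted p = 0.0282 and 0.00848). The S100A1 promoter was called in 5 of 6 but also in 5 of the other 15 (exact test, adjusted p = 0.306). Regions inside ERBB3, the neuregulin co-receptor gene, had 3 and 1 calls, the weaker one at SNAI2 had 2, and that near RXRG, a retinoid receptor gene, had 1. With 8 regions, several at 1 locus, these percentages describe single loci.

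**Figure D5:**
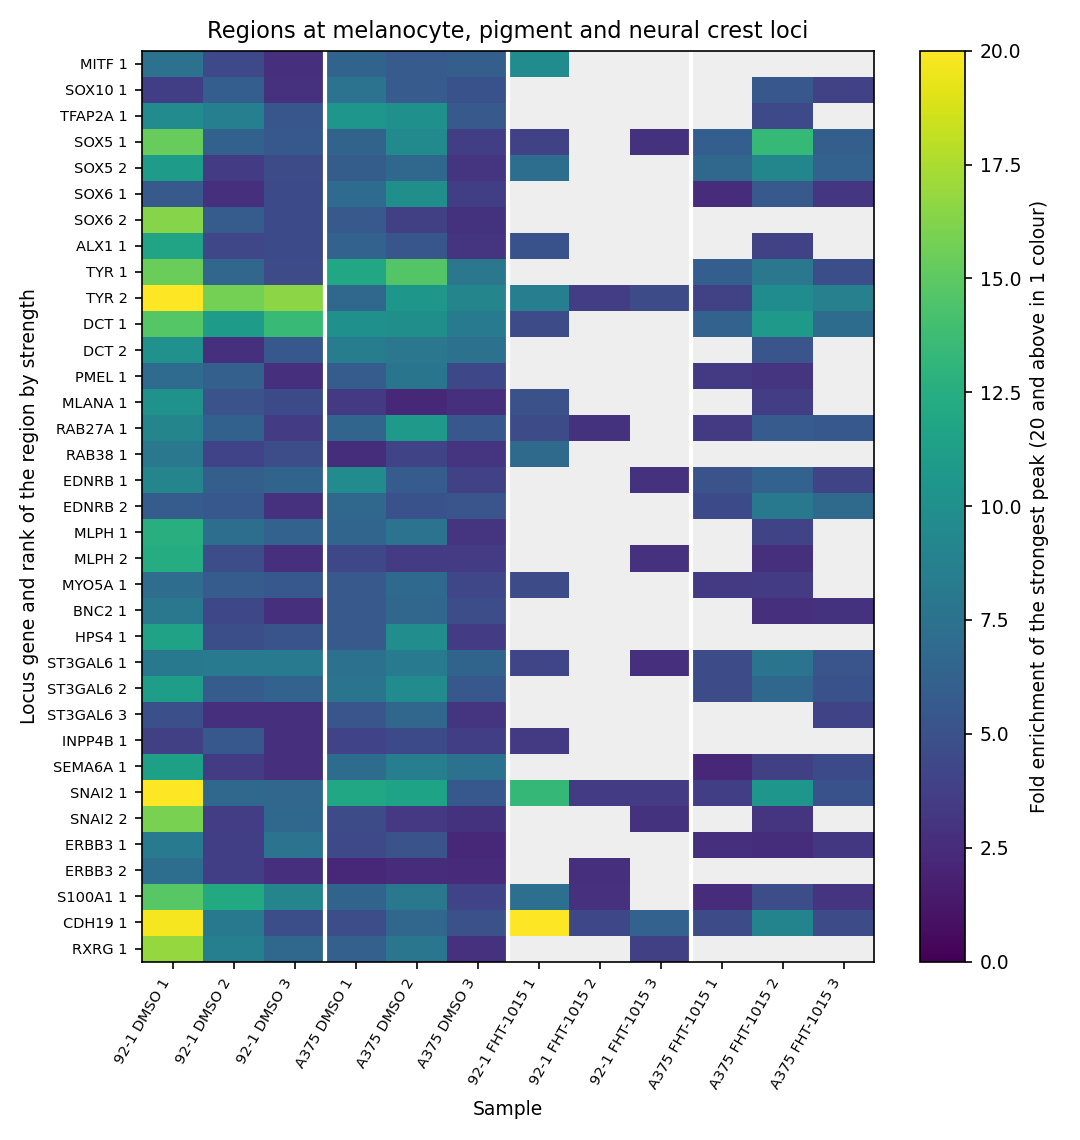
Fold enrichment of the strongest peak (colour; 20 and above share 1 colour, grey means no call) at 35 of the 36 melanoma-shared regions near genes of the 4 lists (rows, ranked by strength at each gene) in the 12 samples of 92-1 and A375 (columns). All rows are filled in the 6 DMSO columns by the rule; in the FHT-1015 columns grey prevails in 92-1, and the second TYR, first SNAI2 and CDH19 rows are filled in all 6.

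Ranked by number of regions inside the gene or within 100 kb, MMP16, a membrane metalloproteinase gene, came first with 6, and these had 14 of 18 possible FHT-1015 calls in 92-1 and 12 of 18 in A375. DLG2, SORCS1, NCKAP5, KCNIP4 and ADAMTS16 had 5 each, and ATG7, DAB1, GLIS3 and NEDD4L 4 each, the last 4 being first among genes tied at that number. DLG2, a synaptic scaffold gene, kept 5 of 15 calls in 92-1 and 9 of 15 in A375, and SORCS1, a sorting receptor gene, 6 and 7. At NCKAP5 there were 5 and 8 of 15, at KCNIP4, a potassium channel partner, 3 and 8, and at ADAMTS16, a secreted metalloproteinase gene, 3 and 10. ATG7, the autophagy enzyme, had 2 of 12 in 92-1 and 11 of 12 in A375, while NEDD4L, a ubiquitin ligase, had 9 and 6. DAB1 and GLIS3 had 4 of 12 each in 92-1 and 8 and 7 in A375. Most of these loci are long, from 380 kb at ADAMTS16 to 2373 kb at DLG2, against a median of 224 kb. In 8 of the 10 the order of the lines followed that of all regions, with MMP16 and NEDD4L the other way round.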

How the data were processed

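Peak lists of 42 samples were analysed, 1 list per sample, so replicates were not pooled. The build (hg38) and the tools Bowtie2, Picard, MACS2, limma and HOMER are those of the submitters' processing notes, which give no role or version. For every peak the authors deposited a fold enrichment, which is a ratio, and a p-value and q-value as −log10. All lists hold peaks down to −log10 p of about 2, so weak calls were kept unless called strict (−log10 q of at least 5). Line, treatment and replicate came from the labels.

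Regions were intersected with Python 3.11.15, numpy 2.4.6 and scipy 1.17.1. Any overlapping base counted as a call. Calls over 21 FHT-1015 samples were compared by Fisher's exact test per segment with Benjamini-Hochberg adjustment (threshold 0.05). Pileup P and background L were solved from fold = (P + 1)/(L + 1) and the Poisson p, with a tolerance of 0.01 on −log10 p. Thinned pileups of A375 were kept at −log10 p of at least 5. No read totals are in the lists, so precision rests on the replicates. Genes are the 19974 protein-coding genes of RefSeq GRCh38.p14; the promoter table covers 15812 genes and is not complete. Scripts were tested on simulated data.

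Named regions were the 10 of highest strength, the 5 strongest called in all 6 FHT-1015 samples, in none of A375 and in none of either line, the 10 genes with most regions within 100 kb (ties by regions inside, then symbol), and up to 3 per list gene. Some of these regions are not reported here. Members and lists were chosen with earlier results of these data known. At most 6.37% of intervals were identical between samples of a line, so none was counted as a duplicate. Alternatives were the call threshold, overlap, list length, background, number of other samples allowed, left-out replicates and lines, lines as units and the replicate number as a block.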

Additional observations from a re-analysis of the deposited data

How the results depend on the processing

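The direction of the difference in percent held was the same under all alternatives run, 13 for 92-1 and 14 for A375. In 92-1 it moved with strict peaks, to -44.6 points. Leaving out 1 replicate gave -63.1 to -50.7 points in 92-1 and -39.4 to -25.2 in A375. The test of calls moved most: against 138 regions it gave 0 with strict peaks, 0 with the 7 lines as units, 41 without MV411, 36 with all segments of either line in the table, 58 when no other DMSO sample was allowed, and 0 without each replicate number in turn. The 0 without a replicate number can follow from the smaller number of samples, which raises the lowest possible exact p. Regions with no FHT-1015 call in 92-1 numbered 1072, and 454 with no other DMSO sample allowed and 1737 with up to 5. In A375, against 369, they numbered 568 at q below 0.05, 182 with no other DMSO sample allowed, and 417 to 724 without 1 replicate. In either line, against 196, they numbered 308 at q below 0.05, 298 with an overlap of 100 bp, 99 with no other DMSO sample allowed, and 218 to 378 without 1 replicate. In 92-1 leaving out 1 replicate gave 1241 to 1457. Counts under another number of samples allowed are of other sets of regions. The other causes were not tested.

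With the replicate number as a block, the test called 36 regions, and differences within numbers were -56.9 points in 92-1 and -32.1 in A375. Deviations of same-numbered samples correlated at -0.0243 to 0.0548 across segments. Such values do not reach effects on a whole list, such as depth. In both lines and both treatments the background fell from replicate 1 to replicate 3. Whether same-numbered samples shared more than a number was not tested. Equal background was not run in 92-1, where 3 of the 6 samples had a background under 0.1. Depth limits what a missing call shows in 92-1 FHT-1015 replicates 2 and 3.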

Other observations

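By chromosome, the melanoma-shared regions were spread unlike the other shared segments. Chromosome 5 held 222 of the 2312 (9.60%), against 6.50% of the other shared segments, and chromosome 9 held 129 (5.58% against 4.04%). Chromosome 19, dense in genes, held 10 (0.433% against 3.70%). Regions held by 92-1 only and by A375 only had 8.25% and 7.94% on chromosome 5 and 0.383% and 1.03% on chromosome 19, so the low share there was common to regions of a single line. Copy number was not analysed here.

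Of the markers of other tumour types, 3 of 10 epithelial genes (30%), 1 of 10 myeloid genes and none of 10 skeletal muscle genes had a melanoma-shared region within 100 kb, against 14.7% of all protein-coding genes. The myeloid region lay 6.69 kb from YEATS4 within reach of LYZ. The epithelial genes had 2 regions, of which 1 was within reach of both KRT8 and KRT18 and the other, inside NCALD, within reach of GRHL2. The region near KRT8 and KRT18 was called in all 3 FHT-1015 samples of A375 and in 1 of 92-1.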
